A study of Mus musculus with 8 samples.

Results

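The 38 names examined here are genes of the endothelium, the cell layer that lines blood and lymph vessels, and of the endocardium, the related layer that lines the heart chambers. They were taken by symbol from the deposited table of normalized counts, and 36 of the 38 matched a row among its 41128 genes. No row carried Npr3os or Nfatc1os, which are not analysed here. The matched genes were grouped as 19 pan-endothelial, 4 capillary, 6 arterial, 4 lymphatic and 3 endocardial members. Left ventricles of 4 Nppb KO mice, which carry a CRISPR deletion in exon 2 of the gene and are marked HOM in the labels, were compared with those of 4 wild-type littermates, all of strain FVB and aged 8 to 12 weeks. Nppb is the gene of brain natriuretic peptide, a hormone of heart muscle, and the labels do not describe the allele further. The labels also name Myh6-MerCreMer, nTnG and Sun1/sfGFP reporter mice kept on the FVB/N background, without saying that any of these 8 animals carried them.

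Total RNA was sequenced from whole ventricular tissue, with 20284865 to 34742840 counts assigned to genes per sample. Nppb read 1.54 to 4.13 normalized counts in knockouts and 1840 to 4619 in wild type, so all libraries matched their labels at this gene. The cardiomyocyte markers summed to 2912200 to 3211400 normalized counts in knockouts and 3067200 to 3256700 in wild type. Of the 7 atrial markers, Myl7, Sln and Bmp10 reached at most 7.58 in any sample. The others were present in every sample. Myl4 read 21.3 to 47.3, Dkk3 24.0 to 60.3 and Stard10 171 to 238. Nppa read 3603 to 3797 in knockouts and 327 to 628 in wild type. No sample was left out. Every p-value rests on the variation among these 8 libraries alone. In bulk tissue, fewer endothelial cells and less RNA per endothelial cell cannot be told apart.

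Endothelial cells sense vascular endothelial growth factor through the receptors encoded by Kdr, Flt1 and Flt4, with Nrp1 as co-receptor. Angiopoietins act through Tek and its partner Tie1, and Notch signals from the ligand Dll4 set arterial identity together with Efnb2, Hey1 and Sox17. The natriuretic peptide receptor Npr1 is present in endothelium, which is one route by which cardiac peptides can act on the vessel wall. Endothelial identity is held by transcription factors of the ETS family, among them Erg and Fli1, and of the SOX F family, Sox17 and Sox18.

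ETS factors bind a GGAA core, so the promoters of the members were searched on both strands for GGAAG, and for AACAAT, a core bound by SOX factors. RefSeq promoters (GRCm38.p6, 250 bases before to 50 after the start) were found for 21 of the 36 genes. The letters GGAAG stood in 17 of these 21 (81.0%), against 73.85% of 27025 genes with a promoter in the same table. AACAAT stood in 3 of 21 (14.3%), in Emcn, Erg and Tek, against 12.2% of all. These matches describe letters and not binding. Shown are the promoter of Nrp1, the member with the smallest p in the genotype comparison, at chr8:128358823-128359122 on the forward strand with 4 matches, and that of Tie1, which held the most matches (7), at chr4:118489800-118490099 on the reverse strand. Capitals mark GGAAG or its reverse complement.
Nrp1: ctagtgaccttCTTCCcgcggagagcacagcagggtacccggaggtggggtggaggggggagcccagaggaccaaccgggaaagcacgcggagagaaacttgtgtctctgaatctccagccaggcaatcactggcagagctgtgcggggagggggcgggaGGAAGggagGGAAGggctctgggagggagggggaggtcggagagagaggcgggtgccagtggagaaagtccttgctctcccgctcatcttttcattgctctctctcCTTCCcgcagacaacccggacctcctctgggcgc
Tie1: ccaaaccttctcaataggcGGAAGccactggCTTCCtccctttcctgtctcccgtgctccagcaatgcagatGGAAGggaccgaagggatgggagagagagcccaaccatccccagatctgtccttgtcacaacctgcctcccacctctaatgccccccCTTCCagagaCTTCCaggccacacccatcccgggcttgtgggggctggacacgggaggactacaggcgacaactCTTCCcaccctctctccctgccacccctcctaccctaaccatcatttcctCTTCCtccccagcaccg

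The comparison asks whether loss of Nppb goes with a different amount of endothelial RNA in the ventricle, or with a different balance of vessel types. No endothelial or endocardial gene passed the test. All 36 exceeded the minimum mean of 10 normalized counts, and 0 had a limma adjusted p under 0.05 over all genes, where 0.0121% of 16590 tested genes did. At an unadjusted limma p under 0.05 there were 2 members, Nrp1 and Plvap, and 6.26% of all tested genes passed that level. In the authors' deposited table Nrp1 and Aqp1 (unadjusted p = 0.0442) were under that level, whereas Plvap (0.167) was not. On the recovered reads edgeR also called 0 members, where it called 0.0121% of all genes. DESeq2 gave 27 members an adjusted p and called 0 of them, where it called 0.291% of genes with an adjusted p. It gave none to the other 9, which were Plvap, Stmn2, Hey1, Tal1, Rgcc, Cldn5, Cytl1, Pdpn and Sox17. The summed level of the 36 genes averaged 49864 ± 1086 normalized counts in knockouts and 49600 ± 196 in wild type (SD, n = 4 each), which was 0.184% to 0.198% of gene counts in knockouts and 0.183% to 0.191% in wild type.

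Estimated differences were small in both directions. The log2 fold changes, knockout over wild type on log2(normalized count + 1), lay between -0.30 for Plvap and 0.18 for Stmn2, with 19 members above 0 and 17 below. Their median was 0.006, beside 0.002 over all tested genes, of which 50.9% lay above 0. The 95% limma interval of the difference stayed within a 1.25-fold change in either direction for 22 members, within 1.5-fold for 32 and within 2-fold for all 36. The widest interval belonged to Aplnr, and 34 of the 36 intervals included 0. No member had groups without overlap, against 3.76% of all tested genes.

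**Figure D1:**
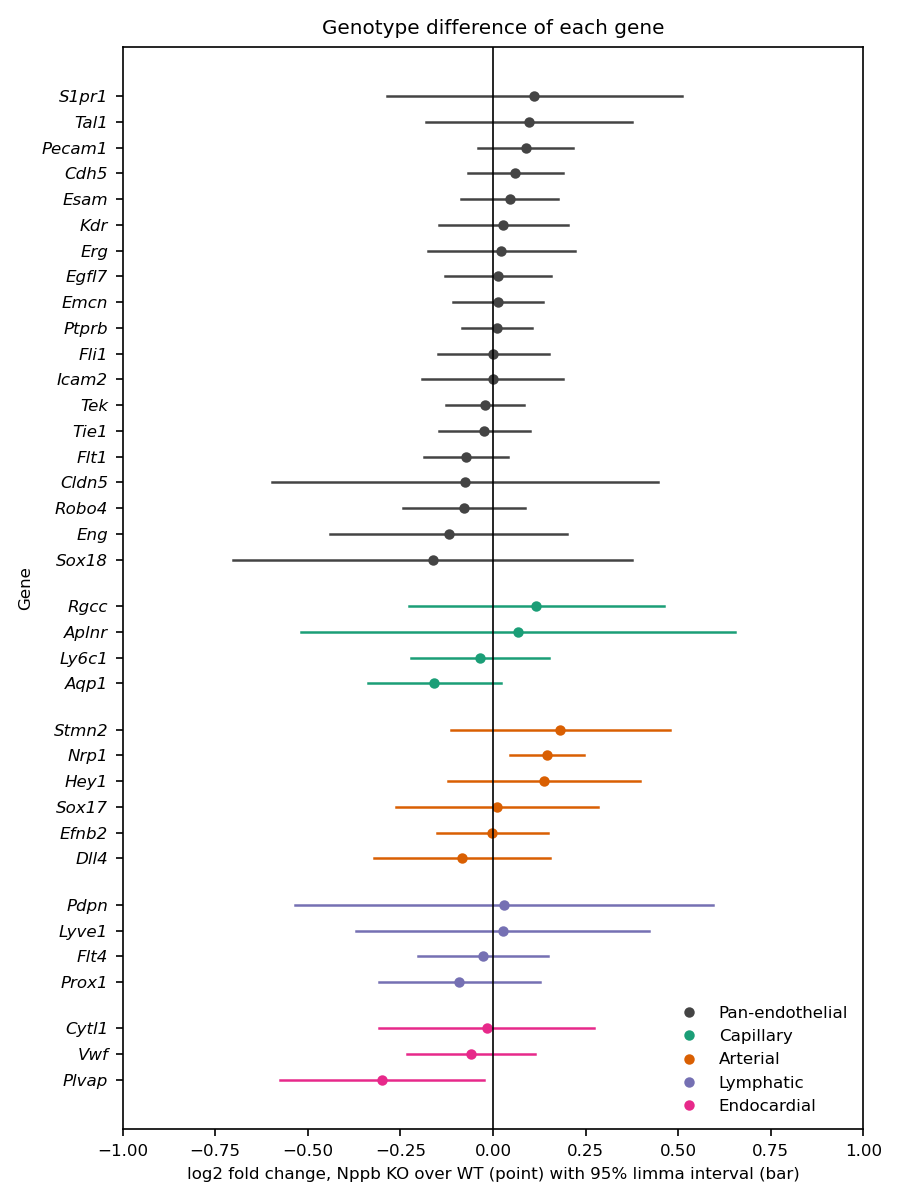
Log2 fold change of each of the 36 genes (points, knockout over wild type) with its 95% limma interval (bars), coloured by vessel type. The points lie between -0.30 and 0.18, and only the bars of Nrp1 and Plvap leave 0 out.

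Levels were compared between genes per kilobase of exon. The order covered a wide range, with Aqp1 highest at 1555 normalized counts per kb over all samples and Stmn2 lowest at 13.5. After Aqp1 came Ly6c1 (647 per kb), Cdh5 (639), Egfl7 (636), Kdr (617) and Nrp1 (552), and the median member stood at 191 per kb. Neighbours in this order from Ly6c1 to Kdr differed by less than the SD of either gene between knockout samples. Arterial, lymphatic and endocardial members other than Nrp1 and Prox1 were all at or below 110 per kb. Aqp1 encodes a water channel that red cells carry as well, and Prox1 is also made by heart muscle cells, so their levels are not those of endothelium alone.

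**Figure D2:**
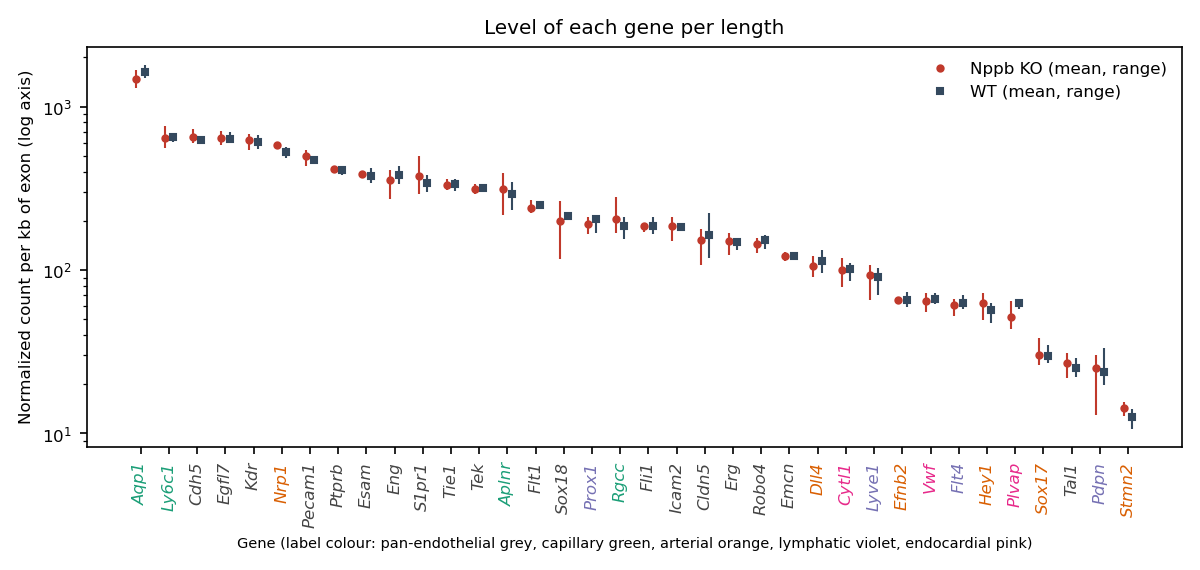
Normalized count per kb of exon (log axis) for each gene, as mean and range over the 4 knockout samples (circles) and the 4 wild-type samples (squares). Aqp1 stands at 1555 and Stmn2 at 13.5 per kb over all samples, and the knockout and wild-type ranges overlap for every gene.

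Among the pan-endothelial members, 11 estimates lay above 0 and 8 below, with a median of 0.01. The growth factor receptors were close to equal in the genotypes. Kdr, the main signalling receptor for vascular endothelial growth factor, read 4915, 6094, 6103 and 5394 normalized counts in knockout replicates 1 to 4, against 5757, 5283, 4975 and 6032 in wild-type replicates 1 to 4. The groups covered the same range (log2 fold change 0.03, SE 0.08). Flt1, a receptor of the same ligand that also acts as a trap for it, read 3079, 3014, 3168 and 3640 in knockouts, against 3400.3, 3453, 3340 and 3349 in wild type. Of the 4 knockout samples 3 were below every wild-type sample and knockout replicate 4 was above them all (log2 fold change -0.07, SE 0.05; limma adjusted p = 0.844). Tek, the angiopoietin receptor, averaged 1479 ± 79.5 in knockouts and 1500 ± 40.9 in wild type. Its partner Tie1 averaged 1632 ± 106 in knockouts and 1660 ± 112 in wild type (SD, n = 4 each). Ptprb, the phosphatase that restrains Tek, averaged 5524 ± 107 in knockouts and 5486 ± 281 in wild type. It had the narrowest interval of all members, from -5.62% to 7.59%.

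Other surface receptors varied more. Eng, a co-receptor for bone morphogenetic proteins, read 1107, 1598, 1395 and 1661 in knockouts, against 1747, 1593, 1359 and 1508 in wild type, so knockout replicate 1 lay below the rest. Its log2 fold change was -0.12 (SE 0.14), and 0.0018 without that sample. The exons of Eng overlap Fpgs on the opposite strand, and the strand setting of the counting is unknown, so this count is uncertain. S1pr1, the receptor for sphingosine 1-phosphate that stabilises vessels, read 1516, 1029, 889 and 1151 in knockouts, against 909, 995, 1159 and 1118 in wild type. Here knockout replicate 1 was the highest of all samples. The log2 fold change was 0.11 (SE 0.17), and -0.03 without that sample. Robo4, a guidance receptor of endothelium, read 674, 815, 833 and 746 in knockouts, against 873, 717, 782 and 867 in wild type (log2 fold change -0.08, SE 0.08; limma adjusted p = 0.893). The lowest value was again in knockout replicate 1, and the groups overlapped.

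None of the junction genes passed the test. Cdh5 encodes VE-cadherin, the adhesion molecule of endothelial junctions, and was the pan-endothelial gene with the highest level per length. It read 2531, 3050, 2890 and 2520 in knockouts, against 2522, 2726, 2565 and 2692 in wild type (log2 fold change 0.06, SE 0.06; limma adjusted p = 0.894). Pecam1, which encodes the adhesion molecule CD31, read 2692, 3357, 3243 and 3162 in knockouts, against 2947, 2970, 2768 and 2994 in wild type. Knockout replicates 2, 3 and 4 were above all wild-type samples and knockout replicate 1 was below them (log2 fold change 0.09, SE 0.06; limma adjusted p = 0.828). Cldn5, a claudin of tight junctions, was uneven within both groups, at 214, 253, 250.4 and 151 in knockouts and 201, 169, 314 and 237 in wild type. Its interval ran from -33.9% to 36.1%, so a moderate change could not be detected. Esam, Icam2 and Emcn, further surface molecules, had log2 fold changes of 0.05, -0.0006 and 0.01. Egfl7, a secreted endothelial protein whose locus also holds a microRNA gene, had a value of 0.01 (SE 0.07). Egfl7 shares exon sequence with Gm20532 on the same strand and with Agpat2 on the opposite strand in the annotation, which makes its count less certain.

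The transcription factors included the pan-endothelial gene with the largest SD between knockouts on the log2 scale. Sox18 read 189, 426, 335 and 340.2 in knockouts, against 336, 358, 347 and 347 in wild type. The wild-type samples were nearly equal, while knockout replicate 1 had the lowest and knockout replicate 2 the highest value of all 8. The log2 fold change was -0.16 (SE 0.23), from -0.32 without knockout replicate 2 to 0.07 without knockout replicate 1. Erg averaged 523 ± 72.0 in knockouts and 512 ± 38.1 in wild type, and Fli1 644 ± 34.3 in knockouts and 645 ± 65.9 in wild type (SD, n = 4 each). Tal1, a factor of endothelial and blood cell precursors, averaged 118 ± 16.9 in knockouts and 109.8 ± 13.7 in wild type. Fli1 and Tal1 are also made by blood cells, and the erythroid and platelet markers summed to 41010 to 53749 in knockouts and 39710 to 58124 in wild type. The part of these cells in the values was not tested.

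The 4 capillary members had 2 estimates above 0 and 2 below. Aqp1 read 4386, 3401, 3646 and 4024 in knockouts, against 4078, 4705, 4504 and 3926 in wild type. The groups overlapped, and the difference of -10.4% by estimate had an interval of -20.9% to 1.57% (log2 fold change -0.16, SE 0.08; limma adjusted p = 0.803). The erythroid and platelet markers summed to 41010, 53749, 51676 and 45522 in knockout replicates 1 to 4, against 39710, 55105, 55562 and 58124 in wild-type replicates 1 to 4, and their part in Aqp1 was not tested. Rgcc, a cell cycle regulator used as a capillary marker in heart, read 257, 154, 159 and 185 in knockouts, against 158, 192, 194 and 143 in wild type, with its highest value in knockout replicate 1. Aplnr, the apelin receptor of capillary and venous endothelium, read 948, 1453, 1455 and 799 in knockouts, against 1135, 1279, 866 and 1054 in wild type. Knockout replicates 2 and 3 were above every wild-type sample, and knockout replicate 4 was the lowest of all. Ly6c1, a surface antigen, averaged 1076 ± 150.4 in knockouts and 1096 ± 67.5 in wild type (SD, n = 4 each). It belongs to a family of similar genes, so its count is uncertain where reads could be split.

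Of the 6 arterial members 4 had estimates above 0, with a median of 0.07, which ran from 0.025 without knockout replicate 4 to 0.12 without wild-type replicate 2. Nrp1 came closest to the threshold. It read 5756, 5789, 5676 and 5480 in knockouts, against 5075, 5183, 5506 and 4774 in wild type. Knockout replicates 1, 2 and 3 were above every wild-type sample, and knockout replicate 4 lay just below wild-type replicate 3. Nrp1 was 10.6% higher by estimate (interval 3.33% to 18.5%; log2 fold change 0.15, SE 0.05) and did not pass (limma adjusted p = 0.669; 0.422 with DESeq2 and 0.708 with edgeR on the recovered reads). Permuting the genotypes exactly, two-sided, gave p = 0.0571 for Nrp1, where 4 samples against 4 allow no value below 0.0286. In the authors' deposited table Nrp1 has an unadjusted p of 0.0033 and an adjusted p of 0.213. Nrp1 is also made by cells other than endothelium, so its level is not specific to arteries.

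The other arterial members, those of Notch signalling among them, all had limma intervals that included 0. Dll4, the ligand, averaged 410.0 ± 55.2 in knockouts and 435 ± 60.3 in wild type. Hey1, a transcriptional target of Notch, read 161, 213, 207 and 237 in knockouts, against 182, 199, 206 and 154 in wild type (log2 fold change 0.14, SE 0.12; limma adjusted p = 0.875). Its knockout replicates 2 to 4 were above every wild-type sample, and knockout replicate 1 was lower than 3 of them. The estimate was 0.25 without knockout replicate 1 and 0.052 without wild-type replicate 4. Efnb2, the membrane ligand of arterial endothelium, averaged 450.2 ± 20.6 in knockouts and 452 ± 38.4 in wild type (SD, n = 4 each). Sox17 averaged 144 ± 26.3 in knockouts and 142 ± 17.5 in wild type. Stmn2, a microtubule regulator known from neurons and listed here as arterial, read 75.9, 71.8, 87.9 and 85.6 in knockouts, against 79.3, 68.7, 75.8 and 59.6 in wild type (log2 fold change 0.18, SE 0.14; limma adjusted p = 0.851). The exons of Dll4 and Sox17 overlap genes on the opposite strand. The strand setting of the counting is unknown, so these counts are uncertain.

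The lymphatic members had a median of -0.0007 on the log2 scale, with 2 above 0 and 2 below. Prox1, the master regulator of lymphatic fate, read 1764, 1711, 1544 and 1397 in knockouts, against 1775, 1417, 1818 and 1832 in wild type (log2 fold change -0.09, SE 0.10; limma adjusted p = 0.908). Wild-type replicate 2 lay apart from the other 3 wild-type samples. The log2 fold change was -0.18 without it and -0.026 without knockout replicate 4. Prox1 was 198 per kb where Flt4, the receptor for lymphatic growth factors, was 61.9 and Lyve1, the hyaluronan receptor of lymphatic vessels, was 92.0. Its exons also overlap those of Prox1os on the opposite strand. Flt4 averaged 505 ± 51.3 in knockouts and 514 ± 47.9 in wild type (SD, n = 4 each). Lyve1 read 191, 314, 275 and 309 in knockouts, against 296, 302, 206 and 257 in wild type. Lyve1 is shared with resident macrophages, whose 11 markers had a median log2 fold change of 0.15, with 10 above 0 and 0 past the threshold. The summed macrophage level was 4054 to 4457 in knockouts and 3480 to 4571 in wild type, and its part in Lyve1 was not tested.

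Pdpn, a membrane glycoprotein of lymphatic vessels and of the mesothelium that covers the heart, was the lowest in count. It read 49.5, 54.0, 55.2 and 23.7 in knockouts, against 39.7, 37.3, 35.9 and 60.6 in wild type. The extremes were knockout replicate 4 and wild-type replicate 4, so the interval ran from -30.9% to 50.9%. The 6 mesothelial markers summed to 238, 171, 193 and 184 in knockouts, against 185, 105, 266 and 385 in wild type. Wild-type replicate 4 was highest for both, whereas knockout replicate 4 was not low for the mesothelial markers. Their part in Pdpn was not tested.

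All 3 endocardial members had estimates below 0. Plvap, a protein of fenestrated and endocardial endothelium, read 129, 86.5, 89.9 and 104 in knockouts, against 125, 132, 114 and 127 in wild type. Knockout replicates 2, 3 and 4 were below every wild-type sample and knockout replicate 1 was among them. Plvap differed by -18.8% by estimate (interval -32.9% to -1.63%; log2 fold change -0.30, SE 0.13) and did not pass (limma adjusted p = 0.768). The estimate was -0.42 without knockout replicate 1 (limma adjusted p = 0.460) and -0.23 without knockout replicate 2. Permuting the genotypes exactly, two-sided, gave p = 0.114 for Plvap, and its unadjusted p in the authors' deposited table is 0.167. Vwf, the clotting factor stored in venous and endocardial cells, read 1170, 891, 969 and 1115 in knockouts, against 998, 1157, 1051 and 1095 in wild type. Cytl1, a small secreted protein and the highest of the 3 per length at 101 per kb, read 125, 83.4, 105 and 110.4 in knockouts, against 116, 111, 110.4 and 89.9 in wild type. Knockout replicate 2 held the lowest value of all 8 samples for each of the 3 genes, while knockout replicate 1 was highest for Vwf and Cytl1. The median of the 3 relative to the mean of all 8 samples was 0.20, -0.34, -0.12 and 0.063 on the log2 scale in knockout replicates 1 to 4, against 0.029 to 0.14 in wild type.

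**Figure D3:**
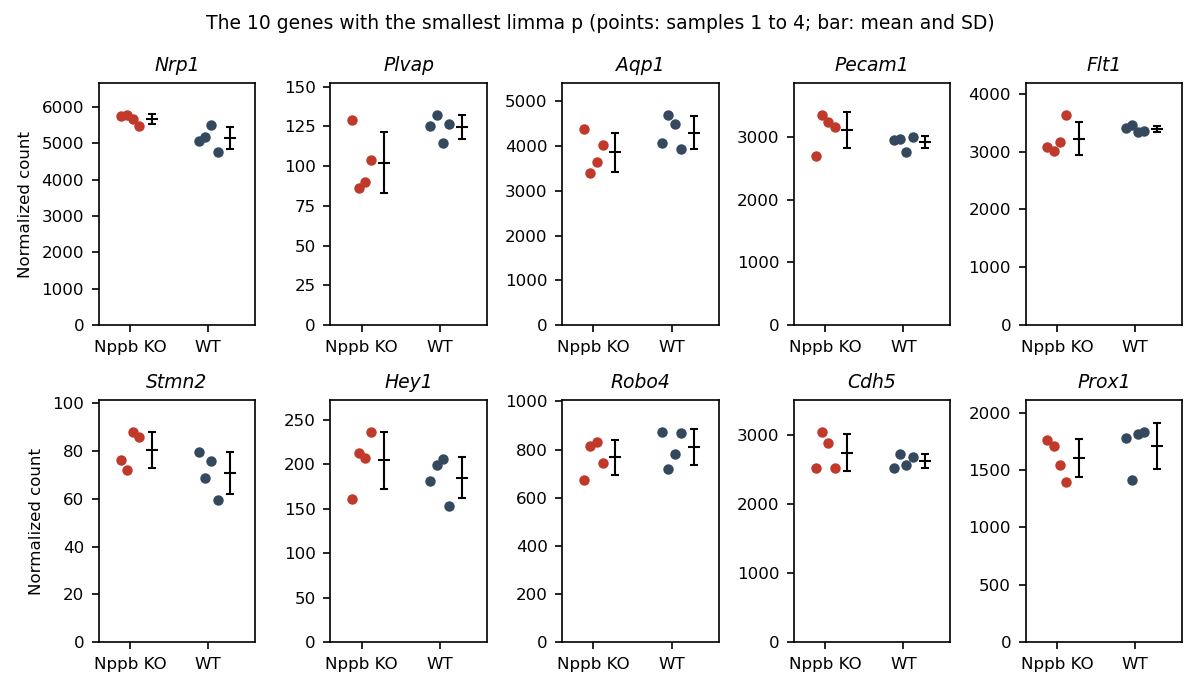
Normalized counts in each sample for the 10 genes with the smallest limma p, knockout samples left and wild-type samples right, with the mean and SD of each group (n = 4). The groups overlap in every panel, as for Nrp1, where the lowest knockout sample is at 5480 and the highest wild-type sample at 5506.

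Among the 36 members the knockout samples differed among themselves more than the wild-type samples did, a pattern picked out after the values were seen. The members were measured in the same 8 samples and are not independent of each other. On the log2 scale 26 of 36 members had a larger SD between knockouts than between wild-type samples, where 47.4% of all tested genes did. The median SD of the members was 0.171 in knockouts and 0.128 in wild type, whereas over all tested genes it was 0.127 in knockouts and 0.132 in wild type. Over the 12768 tested genes within the members' range of mean counts it was 0.105 in knockouts and 0.108 in wild type. The median of the members was thus above that of the genes within this range in both genotypes, though those genes were not matched to the members by level. For each gene the lowest and the highest of the 8 samples were noted. Of these 72 extremes 50 fell in knockouts (69.4%), where over all tested genes 49.0% did. The count of members with the larger SD in knockouts was 21 without knockout replicate 1 and 23 to 29 without any other sample. Over all tested genes the share was 42.7% without knockout replicate 1 and 42.0% to 53.7% without any other sample. The largest gap was that of Sox18, with an SD of 0.498 in knockouts and 0.038 in wild type. Pdpn followed with 0.568 in knockouts and 0.343 in wild type, then Aplnr with 0.439 in knockouts and 0.236 in wild type.

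**Figure D4:**
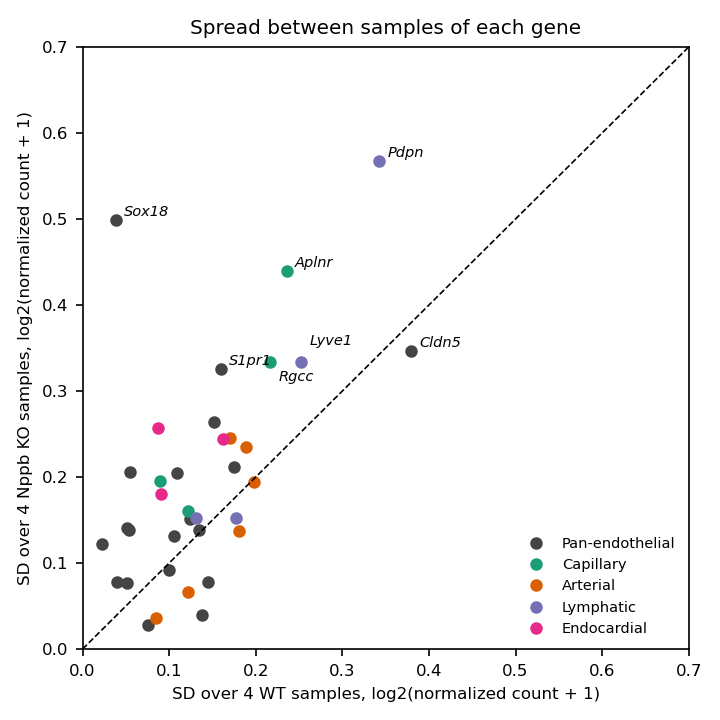
SD of log2(normalized count + 1) over the 4 knockout samples (y axis) against that over the 4 wild-type samples (x axis) for each gene, coloured by vessel type, with the line of equality. Of the 36 points 26 lie above the line, with Sox18 the farthest from it at 0.498 in knockouts and 0.038 in wild type.

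The median deviation of the 36 genes from their mean over all 8 samples was -0.020, 0.054, 0.052 and 0.0043 on the log2 scale in knockout replicates 1 to 4, against 0.038, -0.0048, 0.015 and 0.0074 in wild-type replicates 1 to 4. The ranges of the genotypes overlapped. Knockout replicate 1 held the lowest value of the 8 samples for 9 members (Pecam1, Robo4, Eng, Tal1, Sox18, Kdr, Erg, Lyve1 and Icam2) and the highest for 5 (Vwf, Rgcc, S1pr1, Tek and Cytl1). Knockout replicate 4 was also lowest for 9 members, among them Cdh5, Cldn5, Aplnr and Egfl7. Knockout replicates 2 and 3 were high for the pan-endothelial members as a group (medians 0.064 and 0.084), where knockout replicates 1 and 4 read -0.083 and -0.039. The wild-type medians of this group ran from -0.038 to 0.027.

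**Figure D5:**
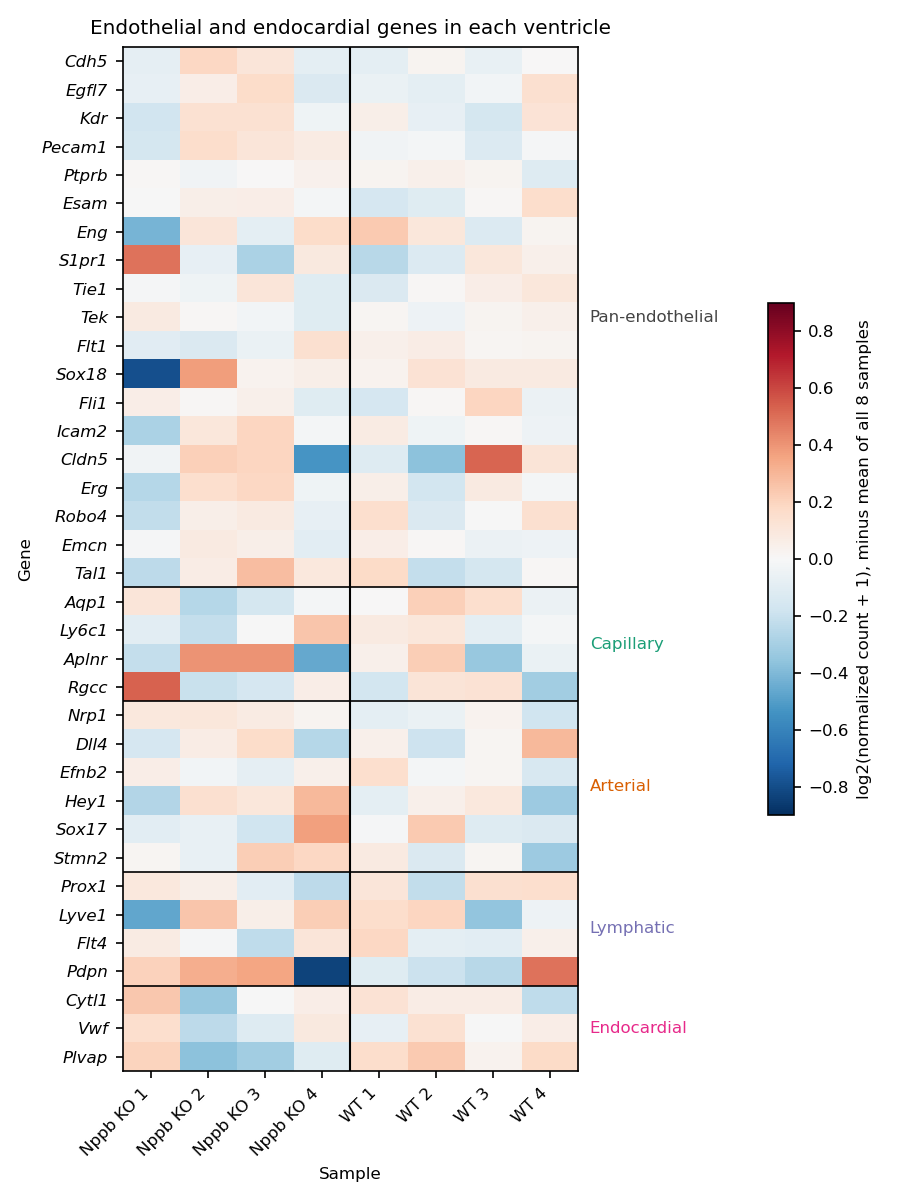
Heat map of log2(normalized count + 1) minus the mean of all 8 samples for the 36 genes (rows, by vessel type) in the 4 knockout and 4 wild-type samples (columns). Red is above and blue below that mean, and Sox18 in knockout replicate 1 is among the deepest blue cells.

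Further genes of endothelial signalling and of each vessel type were taken from lists outside the members. Of 93 tested genes 0 passed the limma test in either direction, with 43 estimates above 0, 50 below and a median of -0.006. At an unadjusted p under 0.05 there were 9 of 93, against 6.26% of all tested genes. Groups without overlap were found for 3 of the 93, against 3.76% of all tested genes, and these were Jam3, Itga9 and Nfatc1. Jam3, a junctional adhesion molecule, read 375, 371, 384 and 367 in knockouts, against 325, 307, 354 and 321 in wild type (log2 fold change 0.20, SE 0.07; limma adjusted p = 0.671). Itga9, an integrin subunit of lymphatic valves, averaged 2474 ± 256 in knockouts and 2217 ± 70.0 in wild type (SD, n = 4 each), with knockout replicate 3 at 2856. It came from a further lymphatic list of 10 genes, of which 4 had estimates above 0 and 6 below, with a median of -0.079. Nfatc1, the transcription factor of endocardium and valves, read 301, 283, 307 and 320 in knockouts, against 365, 322, 323 and 356 in wild type (log2 fold change -0.17, SE 0.07; limma adjusted p = 0.759). In its further endocardial list 8 genes were tested, with 3 estimates above 0, 5 below and a median of -0.030.

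In the remaining lists the gene with the smallest p was named for each. Heyl, a Notch target of vessel walls, differed by -15.2% by estimate (329.9 ± 23.7 in knockouts and 389.7 ± 37.5 in wild type; limma adjusted p = 0.670). Vcan, a matrix proteoglycan placed in the venous list, was 15.8% higher by estimate (limma adjusted p = 0.742). Bmx, a kinase of arterial and endocardial endothelium, averaged 44.7 ± 2.45 in knockouts and 33.8 ± 7.60 in wild type (SD, n = 4 each; limma adjusted p = 0.771). Angpt2, the antagonist ligand of Tek, had a log2 fold change of -0.15, Bmpr2, a receptor for bone morphogenetic proteins, 0.09, and Fabp4, the fatty acid carrier of capillaries, 0.08. Estimates above and below 0 numbered 4 and 6 in the list of Angpt2, 5 and 9 in that of Bmpr2 and 4 and 5 in that of Fabp4. For the lists of Heyl, Vcan, Bmx and Jam3 they numbered 5 and 6, 3 and 3, 6 and 4, and 15 and 8. Npr3, the clearance receptor for natriuretic peptides and a marker of endocardium, averaged 655 ± 56.5 in knockouts and 654 ± 106 in wild type, an interval of -15.6% to 20.8%.

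Markers of other cells were measured beside the endothelial genes. Fibroblast markers summed to 35129 to 41052 in knockouts and 38787 to 42528 in wild type, with a median log2 fold change of -0.02 over 10 genes. Pericyte and smooth muscle markers summed to 55120 to 57988 in knockouts and 55593 to 59640 in wild type, with a median of 0.05 over 12 genes. Cardiomyocyte markers had a median of -0.04, with all 10 below 0 and 0 past the threshold. Leukocyte markers summed to 323 to 406 in knockouts and 277 to 390 in wild type, neural and Schwann markers to 154 to 285 in knockouts and 142 to 261 in wild type. Adipocyte markers stayed at 9.20 to 28.9 in knockouts and 18.3 to 98.5 in wild type. The atrial list summed to 3834 to 4082 in knockouts and 583 to 943 in wild type, almost all of it Nppa, and without Nppa to 232 to 293 in knockouts and 255 to 315 in wild type. Among these lists Nppa was the only gene past the threshold.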

How the data were processed

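Left ventricles of 4 Nppb-knockout and 4 wild-type mice, grouped by sample title, were sequenced as total RNA with a stranded kit and paired ends, per the labels' protocols. The submitters' processing notes list STAR, DESeq2 and the build mm10, without versions. The sources used here do not give the read counter or its strand setting. The authors deposited a signal, normalized counts per gene, in 1 column per sample. Within each sample 100% of these values were whole multiples of 1 step (tolerance 0.01 reads), so whole reads could be recovered. The authors also deposited a comparison table with p-values and adjusted p-values, log2 fold changes (wild type over knockout), and a signal that is the geometric mean of each group. Only its p-values are printed here. There, 23 of the 36 members carry an adjusted p and 0 fall under 0.05.

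The members and lists were chosen with earlier results of these data known. Limma 3.58.1 (R 4.3.3, mean-variance trend, robust) was fitted to log2(value + 1) of the 16590 genes with a mean of at least 10, and p-values were adjusted over all of them by Benjamini-Hochberg at 0.05. Fold changes on this scale understate those of low genes. Exon lengths and overlaps came from GENCODE M21, which held 40254 of the 41128 gene IDs. The fit was tested on simulated counts of 16590 genes for this comparison: of 50 genes changed 1.25-fold it called 12, a 1.5-fold change was called for 42 of 50, a 2-fold change for 49 and a 4-fold change for 50, with 10 false calls among 16390. The simulated dispersion was 0.01 for every gene, whereas the spread of the members differed between genes. The changed genes had a mean of at least 50. With 50 genes changed at each fold, the adjusted threshold was easier to pass than in these data, where 2 genes passed. The numbers called therefore do not carry over to the members. Values in every sample are given for the 10 members with the smallest p and for the member of highest level per length in each vessel type, and further members were picked after their values were seen. Of the other lists the gene with the smallest p is named, and Npr3 and Nfatc1 because 2 member names refer to their opposite strand. Alternatives were a pseudocount of 0.5 or 5, no filter or a minimum mean of 50, TMM or quantile normalization, no robust moderation, sample weights, edgeR 4.0.16 or DESeq2 1.42.0 on the whole reads, a replicate block, and leaving out each sample. Samples of a group were never copies of each other (chi-square per degree of freedom of 4.52 or more).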

Additional observations from a re-analysis of the deposited data

Results flagged for a closer look

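In 4 groups of 4 samples a single sample lay far from the other 3, with a gap to its nearest neighbour that passed Dixon's 95% critical value as a share of the group's range. These were 4 of 94 groups checked, 3 of them among the 72 groups of the endothelial and endocardial members, and chance flags about 1 in 20 groups. Prox1 read 1417 in wild-type replicate 2, against 1775 to 1832 in the other wild-type samples. Ptprb read 5068 in wild-type replicate 4, where the other wild-type samples had 5597 to 5675. Pdpn read 60.6 in wild-type replicate 4, against 35.9 to 39.7 in the other wild-type samples, and the summed mesothelial markers were also highest in that sample, at 385. Itga9, an integrin of lymphatic valves, read 2856 in knockout replicate 3, against 2324 to 2377 in the other knockouts.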

How the results depend on the processing

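No member with an adjusted p passed the threshold under the alternatives run, each sample left out included. DESeq2 gave 9 of the 36 members no adjusted p, and Pdpn had no value with a minimum mean of 50. The number of genes past the threshold over the whole table, 2 with limma, was 5 without a filter, 4 with sample weights and 23 with DESeq2, and 1 to 6 when each sample was left out, with 6 without wild-type replicate 2 and 4 without knockout replicate 4. Members whose groups did not overlap numbered 1 (Nrp1) after quantile normalization (3.76% of all tested genes) and 0 to 3 when samples were left out. They were Plvap, Pecam1 and Hey1 without knockout replicate 1 (8.03% of all tested genes), Nrp1 and Flt1 without knockout replicate 4 (7.23%), Prox1 without wild-type replicate 2 (8.26%) and Nrp1 without wild-type replicate 3 (6.54%). The count of members with a larger SD in knockouts was 21 to 29 when samples were left out, where 42.0% to 53.7% of all tested genes had one. These alternatives were chosen after seeing the data.

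Some estimates changed sign, and the cause was not tested. They included Sox18, Eng, Rgcc and S1pr1, which were among the larger ones. With sample weights the log2 fold changes were 0.0001 for Tie1, -0.0086 for Sox17, 0.016 for Icam2 and -0.026 for Npr3. Fli1 had -0.0020 with TMM factors and -0.0021 after quantile normalization. Icam2 had 0.0022 with edgeR and 0.0028 with DESeq2, and Npr3 had -0.010 with edgeR and -0.0063 with DESeq2. Leaving out each sample gave ranges that crossed 0 for 24 members and Npr3, which were Eng (-0.19 to 0.0018), Dll4 (-0.16 to 0.0006), Vwf (-0.12 to 0.010), Rgcc (-0.040 to 0.20), Sox18 (-0.32 to 0.073), S1pr1 (-0.032 to 0.22), Tek (-0.052 to 0.010), Ly6c1 (-0.12 to 0.031), Tie1 (-0.070 to 0.0093). They were also Kdr (-0.020 to 0.091), Cldn5 (-0.21 to 0.088), Flt4 (-0.069 to 0.045), Aplnr (-0.055 to 0.23), Ptprb (-0.027 to 0.028), Erg (-0.037 to 0.11), Emcn (-0.011 to 0.048), Egfl7 (-0.039 to 0.064). The others were Lyve1 (-0.089 to 0.19), Cytl1 (-0.10 to 0.092), Pdpn (-0.084 to 0.31), Sox17 (-0.11 to 0.092), Efnb2 (-0.051 to 0.048), Fli1 (-0.049 to 0.066), Icam2 (-0.065 to 0.093), Npr3 (-0.11 to 0.082). Without crossing 0, the range over samples left out was 0.051 to 0.16 for Pecam1, -0.13 to -0.043 for Flt1, 0.052 to 0.25 for Hey1, -0.14 to -0.019 for Robo4, 0.0089 to 0.10 for Cdh5, -0.18 to -0.026 for Prox1, 0.10 to 0.24 for Stmn2, -0.22 to -0.099 for Aqp1, 0.022 to 0.19 for Tal1 and 0.0038 to 0.11 for Esam. The endocardial median ran from -0.12 to 0.010. Bmx also had no value with a minimum mean of 50.

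The replicate numbers are shared by both groups, but same-numbered samples did not deviate together (r = -0.075, 0.0059, -0.027 and -0.11 over 12874 genes). With the replicate block 3 genes and 0 members passed the threshold. The median half-width of the members' intervals was 0.19 on the log2 scale, and differences inside each interval are not excluded.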
